A study of Mus musculus with 12 samples.

Results

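The RNA of 9 chemokine receptors, Ccr2, Ccr4, Ccr6, Ccr7, Ccr8, Cxcr3, Cxcr4, Cxcr5 and Cxcr6, was followed across 4 groups of cultured mouse regulatory T cells (Tregs). They were chosen by gene symbol and are 9 of the 55228 gene symbols measured. All 9 passed the filter on low values. Tregs were sorted as Foxp3.GFP+CD25+ cells from CD4+-enriched lymph node cells of 16 NOD.Foxp3-GFP mice, pooled and then shared out among 3 sorting machines, and the 3 sorted parts were activated apart. Each part was split and transduced on day 2 with a retroviral vector carrying the surface reporter Thy1.1. EV cells received the empty vector, and 1G12t and 3A10t cells received a construct in which orthoIL-2, a mutated IL-2 of variant 1G12 or 3A10, is tethered through a CD25-derived linker to its matching mutated receptor chain, orthoIL-2Rβ. EV no IL-2, 1G12t and 3A10t cells were washed free of IL-2 on day 4 and kept without it for 5 days, EV+IL-2 cells stayed in IL-2, and Thy1.1+ cells of all groups were sorted on day 9. There were 3 libraries per group, 12 in all. Replicates of a group are therefore separate cultures from 1 pool of mice, and p-values measure the spread between these cultures and not between animals. Every group carries the viral vector and every cell was activated in culture, so none of them is a resting Treg taken straight from a mouse.

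Chemokine receptors are G protein-coupled receptors that read gradients of small secreted proteins, the chemokines, and steer cells toward their source. A ligand-bound receptor acts mainly through the Gi class of G proteins, and is then phosphorylated, bound by arrestin and taken into the cell. The set a Treg carries sets where it can go. CCR7 and CXCR5 lead T cells to the T cell zones and B cell follicles of lymphoid organs, CXCR4 answers CXCL12 made by stroma of the bone marrow and other tissues, and CCR2, CCR4, CCR6, CCR8, CXCR3 and CXCR6 are tied to entry into inflamed tissue, skin, gut and other barrier sites. CCR4 and CCR8 are widely used as markers of activated or tissue Tregs.

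On GRCm38, with the gene models of GENCODE M21, all 9 are protein-coding genes and 5 of them lie on chromosome 9. Cxcr6 (chr9:123806475-123811760) and Ccr2 (chr9:124101950-124113557), both on the plus strand, lie in 1 chemokine receptor cluster, with 290189 bases between them. Ccr8 (chr9:120092114-120094906, plus strand), Ccr4 (chr9:114490316-114504916, minus strand) and Cxcr5 (chr9:44511787-44561877, minus strand) lie elsewhere on that chromosome. The others are Ccr6 (chr17:8236043-8257141, plus strand), Ccr7 (chr11:99144196-99155077, minus strand), Cxcr3 (chrX:101731535-101734269, minus strand) and Cxcr4 (chr1:128588199-128592293, minus strand). Reads of 50 bases could be assigned to the wrong gene where transcripts share sequence. Of the 50-base windows in its transcripts, Ccr2 shared 1.91% with other genes, Cxcr5 shared 1.86%, all with the overlapping gene Bcl9l, and Ccr4 shared 0.465%, while the other 6 receptors shared 0.

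RefSeq promoters of GRCm38.p6 were at hand for 7 of the 9 receptors, all but Ccr7 and Cxcr5, at 8 start sites. For 3 of the receptors that were lower with IL-2, the 250 bases before the start are shown. These 3 windows were picked because the genes fell with IL-2 and the windows hold at most 2 bases of the annotated gene. They are chr17:8235793-8236042 (plus strand) for the upstream start of Ccr6, chr1:128592300-128592549 (minus strand) for Cxcr4 and chr9:123806227-123806476 (plus strand) for Cxcr6. Each reads 5′ to 3′ toward the start, and capitals mark matches to the STAT motif TTCNNNGAA.
Ccr6: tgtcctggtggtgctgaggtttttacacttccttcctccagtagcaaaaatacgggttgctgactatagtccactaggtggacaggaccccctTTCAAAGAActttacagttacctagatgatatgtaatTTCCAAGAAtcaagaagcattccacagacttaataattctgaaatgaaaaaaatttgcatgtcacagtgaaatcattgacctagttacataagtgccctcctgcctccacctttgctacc
Cxcr4: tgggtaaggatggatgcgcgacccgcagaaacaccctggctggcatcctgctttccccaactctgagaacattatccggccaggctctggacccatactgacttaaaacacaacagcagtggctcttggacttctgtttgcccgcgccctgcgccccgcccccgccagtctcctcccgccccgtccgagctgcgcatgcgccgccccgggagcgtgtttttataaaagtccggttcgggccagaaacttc
Cxcr6: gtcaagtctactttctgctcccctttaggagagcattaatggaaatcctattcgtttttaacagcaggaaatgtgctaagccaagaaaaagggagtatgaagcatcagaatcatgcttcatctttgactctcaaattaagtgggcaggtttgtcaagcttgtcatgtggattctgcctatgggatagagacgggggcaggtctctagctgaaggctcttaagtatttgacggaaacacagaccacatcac
The Ccr6 window held 2 matches to TTCNNNGAA, the palindromic motif bound by STAT factors such as the STAT5 that IL-2 activates, beginning 157 and 120 bases before the start. Of 32851 promoter windows of the same length, 7.02% held at least 1 such match and 0.317% held 2 or more. No other window of the receptors, including that of the second Ccr6 start, held this motif. The forkhead motif GTAAACA (in 3.17% of all windows), the KLF motif GGGTGTGG (3.20%), the TCF/LEF motif CTTTGAT (3.21%) and the E box CACGTG (6.02%), searched on both strands, matched none of the 8. The percentages are for 1 motif in 1 window, while 5 motifs were searched in 8 windows. A match describes letters and not a bound site, and any link to the fall of Ccr6 was not tested. The GC content was 41.2% for Ccr6, 43.6% for Cxcr6 and 61.2% for Cxcr4, against a median of 52.4% over all windows.

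Levels are given in scaled TPM, estimated transcript shares that are corrected for library total and transcript length, so that levels of different genes can be set side by side. TPM keep no read depth, so the spread between the 3 libraries is the only error. The libraries carried Treg RNA, with Foxp3, the factor that defines the lineage, between 369 and 510 scaled TPM in the 12 libraries and lowest in the 3 of 3A10t (369 to 463 TPM). Summed levels of 2 NK cell markers were at most 0.520 TPM, and B cell markers other than Cd79b and myeloid markers other than Cst3 stayed at or under 2.22 and 1.73 TPM in every library. Cd79b reached 13.3 TPM, and Cst3, which many cell types express, ranged from 440 to 762 TPM with its highest value in a 3A10t library. The sum of 2 CD8 T cell markers ranged from 3.45 to 6.51 TPM. The filter left 2 of 4 B cell, 1 of 5 myeloid and 1 of 2 CD8 T cell markers to test. None of these was called in any comparison, and the others, with both NK cell markers, were not tested. Fewer genes were above 0 with IL-2 (30393 to 36239) than in the other 9 libraries (37930 to 43285), and 3A10t libraries had the largest share of TPM in their 10 highest genes (10.8 to 13.5%, against 8.85 to 9.92% elsewhere). The part of these library features in the results was not tested.

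Ccr7 was the most abundant of the 9 receptors in every library and made up 58.2 to 61.1% of their summed TPM on group average. In EV no IL-2 cells the order by mean scaled TPM was Ccr7 (413 ± 29.2, SD, n = 3), Ccr6 (75.0 ± 14.5), Ccr8 (69.5 ± 1.84), Cxcr4 (31.6 ± 0.565), Ccr4 (28.9 ± 2.34), Cxcr3 (22.8 ± 2.32), Cxcr6 (15.7 ± 0.231), Ccr2 (13.7 ± 3.11) and Cxcr5 (5.54 ± 0.508). Ranges of neighbours overlapped for Ccr6 and Ccr8, for Cxcr4 and Ccr4, and for Cxcr6 and Ccr2, so those pairs are not ordered beyond their spread. With IL-2 the order became Ccr7, Ccr8, Ccr4, Ccr6, Ccr2, Cxcr3, Cxcr4, Cxcr6 and Cxcr5, and only Ccr4 and Ccr6 overlapped. Ccr8, level with Ccr6 without IL-2, thus stood apart from it with IL-2, where the Ccr6 to Ccr8 ratio was 0.464 ± 0.0923 (SD, n = 3) in place of 1.08 ± 0.189. In 1G12t cells Ccr7 came first and Cxcr5 last, and Ccr8 and Ccr6, Ccr4 and Cxcr6, and Cxcr6 and Cxcr3 overlapped. In 3A10t cells Ccr6 and Ccr8 again overlapped behind Ccr7, and each neighbour from Ccr4 through Cxcr3, Cxcr4, Cxcr6 to Ccr2 overlapped the next. Summed over the 9 receptors, EV no IL-2 cells had 675 ± 8.93 TPM, EV+IL-2 cells 430 ± 14.5, 1G12t cells 633 ± 93.4 and 3A10t cells 792 ± 33.0 (SD, n = 3).

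**Figure D1:**
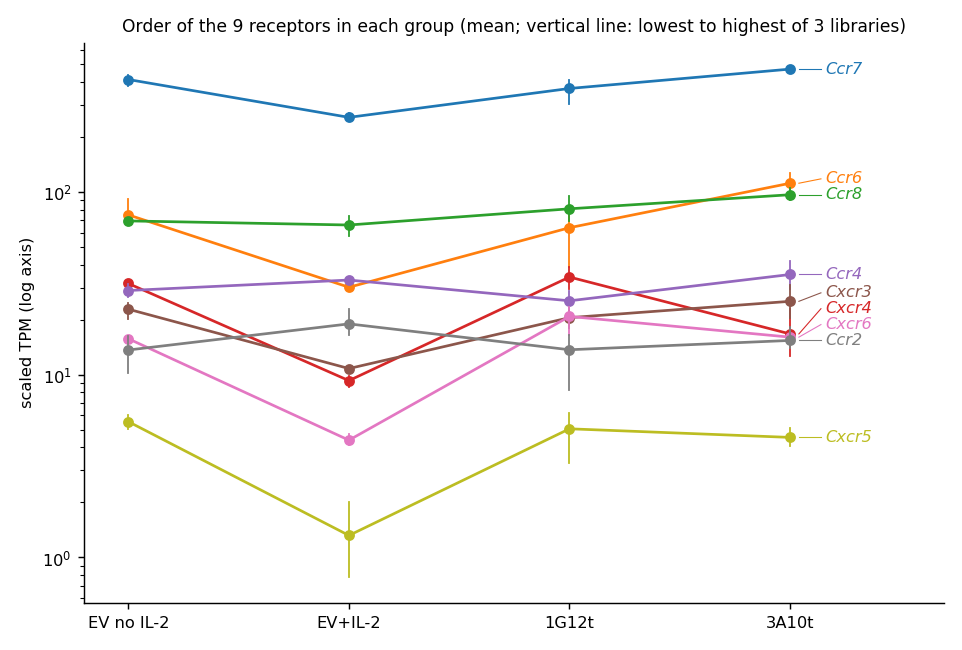
Mean scaled TPM of each of the 9 receptors (log axis) in the 4 groups, with a vertical line from the lowest to the highest of 3 libraries and lines joining the same receptor between groups. Ccr7 is highest and Cxcr5 lowest in all 4 groups, and Cxcr4, Cxcr6, Ccr6, Cxcr3 and Cxcr5 dip in EV+IL-2, where the range of Ccr8 overlaps that in EV no IL-2 and Ccr4 lies slightly above it.

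The comparison of EV+IL-2 with EV no IL-2 cells asked what continued soluble IL-2 does to these receptors. Of the 9 receptors, 6 fell, namely Cxcr4, Cxcr6, Cxcr5, Ccr6, Cxcr3 and Ccr7, and none rose. Among all 15043 genes tested, 5.13% were lower and 8.17% higher by the same rule, a Benjamini-Hochberg adjusted p under 0.05 in limma. Ccr2, Ccr4 and Ccr8 did not pass the test. Libraries of both groups did not overlap for 8 of 9 receptors, against 39.6% of all genes tested. The median log2 fold change was −1.01 over the receptors and −0.014 over all genes. All 6 calls held under each of the alternatives that could be fitted. Fewer cells carrying a receptor and less of its RNA per cell cannot be told apart in these bulk libraries.

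Among the lymphoid-homing receptors, Ccr7, the receptor for CCL19 and CCL21 that holds T cells in lymph nodes, measured 439, 417 and 382 TPM in EV no IL-2 replicates 1, 2 and 3 and 251, 270 and 248 with IL-2. Each IL-2 library was below each library without it. Ccr7 fell by 0.68 on the log2(TPM + 1) scale (SE 0.106, adjusted p = 0.00159, limma), to 62.1% of the EV no IL-2 mean, and was lower by 0.62 to 0.81 log2 units within the 3 sorts. It was the smallest fall of the 6 on this scale and the largest in TPM. Cxcr5, the receptor for CXCL13 that marks follicular T cells, was the least abundant and measured 5.56, 6.03 and 5.02 TPM without IL-2 and 1.16, 2.02 and 0.777 TPM with it. The groups did not overlap, and Cxcr5 fell by 1.53 log2 units (SE 0.224, adjusted p = 0.00111). With 1.32 ± 0.639 TPM (SD, n = 3) in IL-2 it lay near the floor of the filter, where many genes were lower in the IL-2 libraries, as described with the low receptors further on. The part of that pattern in the fall of Cxcr5 was not tested.

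Cxcr4, the receptor for CXCL12, measured 31.9, 31.9 and 30.9 TPM in EV no IL-2 libraries and 9.88, 8.61 and 9.37 TPM with IL-2, with a coefficient of variation of at most 6.92% in either group. The gap between the groups was far wider than the spread within them, and Cxcr4 fell by 1.67 log2 units (SE 0.178, adjusted p = 0.000128), to 29.4% of its level without IL-2.

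The receptors linked to inflamed and barrier tissue divided. Cxcr6, the receptor for CXCL16, measured 15.8, 16.0 and 15.5 TPM without IL-2 and 4.29, 4.12 and 4.74 TPM with it. The groups lay far apart, with the lowest adjusted p of the 9, and Cxcr6 fell by 1.64 log2 units (SE 0.120, adjusted p = 1.07e-05). Ccr2, which binds CCL2 and lies in the same cluster on chromosome 9, measured 10.2, 14.4 and 16.3 TPM without and 22.9, 17.4 and 16.6 TPM with IL-2. The IL-2 libraries of Ccr2 all lay above the others, by little at the edges, and the log2 fold change of 0.46 (95% interval −0.097 to 1.01, adjusted p = 0.295) did not pass the test.

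Ccr6, the receptor for CCL20 at mucosal surfaces, measured 66.2, 67.0 and 91.8 TPM without IL-2 and 28.9, 28.9 and 32.5 TPM with it. The highest IL-2 library was below the lowest of EV no IL-2, and Ccr6 fell by 1.27 log2 units (SE 0.232, adjusted p = 0.00422). Cxcr3, the receptor for the interferon-induced ligands CXCL9 and CXCL10, measured 20.2, 23.7 and 24.6 TPM without and 10.9, 11.0 and 10.6 TPM with IL-2. It was lower in every IL-2 library, by 1.01 log2 units (SE 0.140, adjusted p = 0.000791).

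The 2 receptors most used as Treg markers, Ccr8 and Ccr4, did not pass the test. Ccr8, the receptor for CCL1, measured 67.4, 70.2 and 70.9 TPM without and 74.0, 66.7 and 57.2 TPM with IL-2, groups that overlapped, with a log2 fold change of −0.081 (95% interval −0.358 to 0.196, adjusted p = 0.770). Ccr4, the receptor for CCL17 and CCL22, measured 28.7, 26.7 and 31.3 TPM without and 32.9, 32.4 and 33.7 TPM with IL-2. Its IL-2 libraries were all slightly higher, and the log2 fold change was 0.19 (95% interval −0.148 to 0.523, adjusted p = 0.513).

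**Figure D2:**
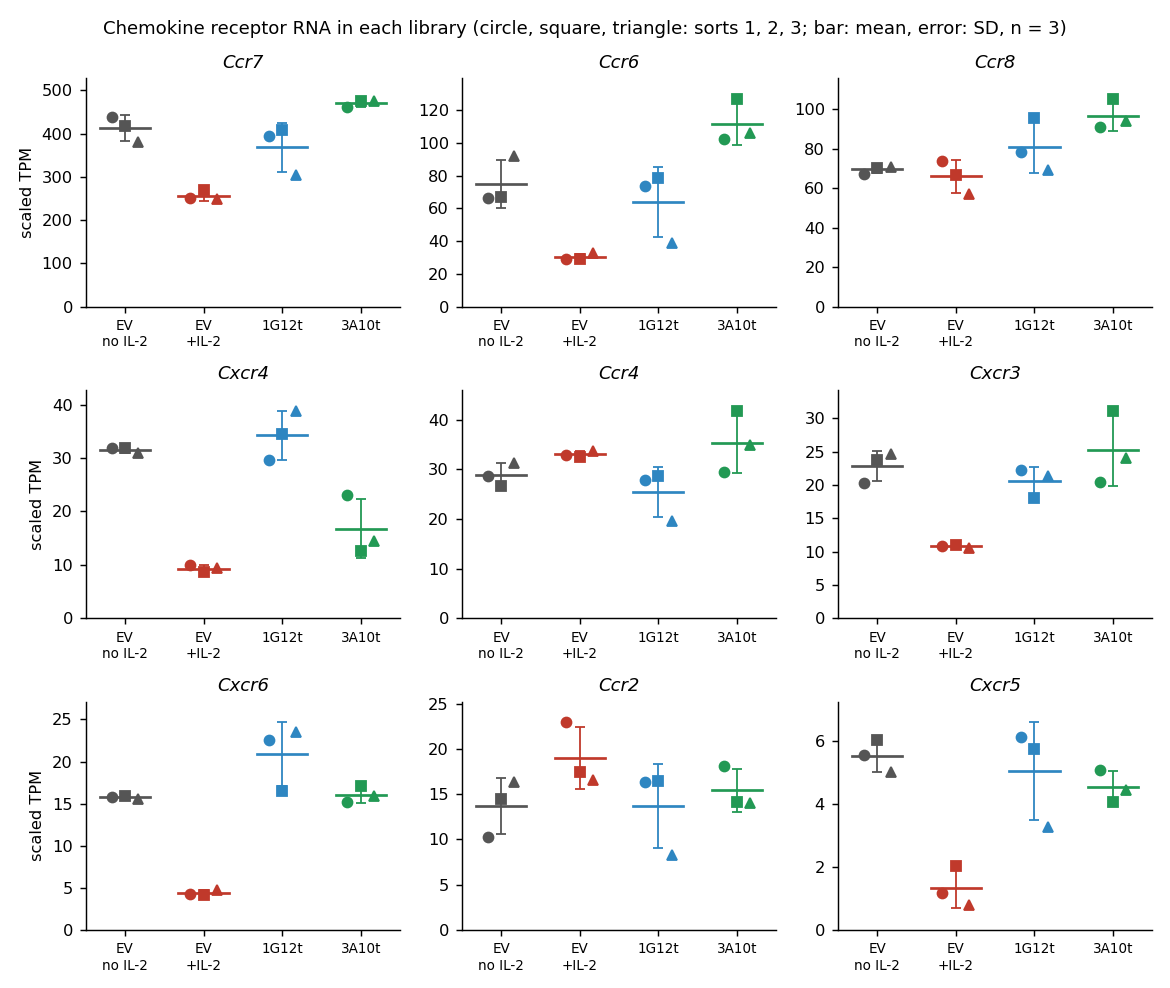
Scaled TPM (linear axis from 0) of each receptor in the 12 libraries, with circle, square and triangle for sorts 1, 2 and 3, a bar for the mean and an error bar for the SD (n = 3). The EV+IL-2 libraries lie below all others for Ccr7, Ccr6, Cxcr4, Cxcr3, Cxcr6 and Cxcr5, and the 3A10t libraries of Cxcr4 lie between 12.6 and 23.0 TPM, below EV no IL-2 and above EV+IL-2.

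The comparison of 3A10t with EV no IL-2 cells asked how cells with the 3A10t construct differ in the absence of added IL-2. EV cells lack the orthoIL-2Rβ that both constructs carry, and no group carried it alone. Effects of the tethered orthoIL-2 and of the added receptor chain therefore cannot be told apart. Cxcr4 was the only receptor called. It measured 31.9, 31.9 and 30.9 TPM in EV no IL-2 and 23.0, 12.6 and 14.5 TPM in 3A10t replicates 1, 2 and 3. All 3A10t libraries were lower, and replicate 1 stood nearer to EV than the other 2. Cxcr4 fell by 0.92 log2 units (SE 0.178, adjusted p = 0.0360), to 53.0% of the EV no IL-2 mean. By the same rule 1.60% of all genes were lower. The call was marginal. It was lost without any 1 of 10 libraries, with adjusted p from 0.0593 to 0.146, and was kept without 1G12t replicate 3 or 3A10t replicate 1. It was also lost with no filter on low TPM (adjusted p = 0.0591) and in the fit of only the 6 libraries compared (adjusted p = 0.261). Its direction held in every sort, from −1.27 to −0.456 log2 units.

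None of the other receptors that fell with soluble IL-2 passed the test in 3A10t cells. Of the 9 receptors 7 had a positive log2 fold change, as had 7957 of all 15043 genes tested. Ccr8 measured 90.8, 105 and 94.0 TPM in 3A10t replicates 1, 2 and 3, each above the 70.9 TPM of the highest EV no IL-2 library. The log2 fold change of Ccr8 was 0.47 (SE 0.125, adjusted p = 0.0744), and among the alternatives it passed only without 3A10t replicate 1, where it was 0.51 (adjusted p = 0.0305). Without that library 3469 of the 15043 genes were called in this comparison, in place of 308. Ccr6 measured 102, 127 and 106 TPM in 3A10t cells, all above EV no IL-2, with a log2 fold change of 0.58 (95% interval 0.0677 to 1.09, adjusted p = 0.155). With soluble IL-2, against the same EV no IL-2 libraries, the sign of Ccr6 was the opposite. Ccr7 measured 460, 476 and 475 TPM, all above EV no IL-2, with a log2 fold change of 0.19 (adjusted p = 0.268). Thus Cxcr4, Ccr6, Ccr7 and Ccr8 did not overlap between the groups, 4 of 9 against 25.4% of all genes tested. Cxcr6 (15.2, 17.1 and 15.9 TPM in 3A10t) overlapped EV no IL-2, with a log2 fold change of 0.025 and a 95% interval from −0.239 to 0.290. Ccr2, Ccr4, Cxcr3 and Cxcr5 overlapped as well, with adjusted p from 0.272 to 0.666.

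The comparison of 1G12t with EV no IL-2 cells called 0 of 9 receptors in limma, against 0.0199% of all genes, and 1 receptor had an unadjusted p under 0.05. That receptor was Cxcr6, with 22.5, 16.5 and 23.5 TPM in 1G12t replicates 1, 2 and 3 against 15.5 to 16.0 TPM in EV no IL-2. All 3 libraries were higher, replicate 2 by little, and the log2 fold change was 0.37 (SE 0.120, unadjusted p = 0.0110 in limma, adjusted p = 0.684). The groups overlapped for the other 8, so that 1 of 9 did not overlap, against 16.5% of all genes tested. Intervals were wide, reaching from −0.788 to 0.235 for Ccr6 and from −0.288 to 0.499 for Cxcr4, and do not show that these receptors were equal. Replicate 3 of 1G12t was the lowest of its group for 6 receptors, Ccr2, Ccr4, Ccr6, Ccr7, Ccr8 and Cxcr5, and the highest for Cxcr4 and Cxcr6. In that library Ccr6 measured 39.1 TPM, against 73.5 and 78.8 TPM in the other 2. Without it the log2 fold change of Ccr6 moved from −0.28 to 0.038.

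**Figure D3:**
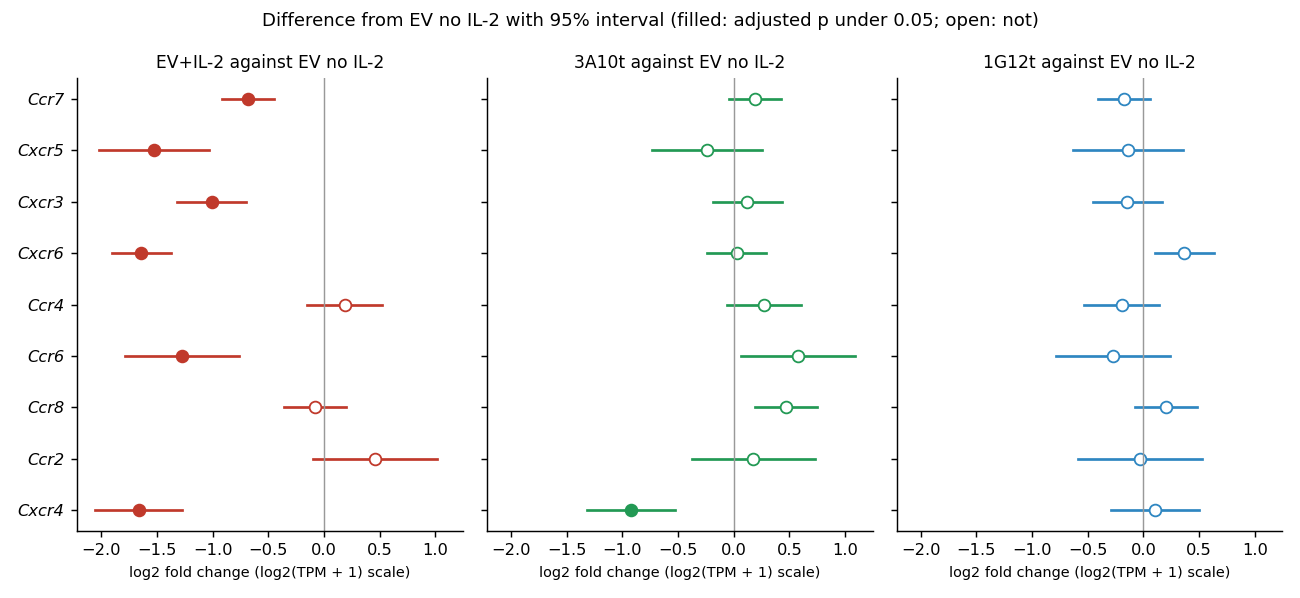
Log2 fold change on the log2(TPM + 1) scale with its 95% interval for the 9 receptors in EV+IL-2, 3A10t and 1G12t cells, each against EV no IL-2, with filled circles for an adjusted p under 0.05. In EV+IL-2 6 receptors are filled and lie below 0, in 3A10t only Cxcr4 is filled, at −0.92, and in 1G12t no receptor is.

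The tethered constructs were then compared directly. Only Cxcr4 passed, lower in 3A10t (23.0, 12.6 and 14.5 TPM) than in 1G12t (29.6, 34.4 and 38.8 TPM). The groups did not overlap, and Cxcr4 fell by 1.03 log2 units (SE 0.178, adjusted p = 0.0253), to 48.8% of the 1G12t mean. Over all genes 2.96% were lower by this rule. The call was lost without EV no IL-2 replicate 2, 1G12t replicate 2 or 3, or 3A10t replicate 2 or 3, with adjusted p from 0.0515 to 0.0999, and held without each of the other 7 libraries. It was also lost with no filter on low TPM (adjusted p = 0.0586) and in the fit of only the 6 libraries compared (adjusted p = 0.281). Ccr6 (log2 fold change 0.86, adjusted p = 0.0572), Ccr7 (0.36, 0.0658) and Ccr4 (0.47, 0.0814) did not overlap and were higher in 3A10t, short of the threshold. With Cxcr4 that made 4 of 9, against 26.2% of all genes tested. Without 3A10t replicate 1 these 3 and Cxcr3 passed, with adjusted p of 0.0354 for Ccr6, 0.0457 for Ccr7, 0.0220 for Ccr4 and 0.0471 for Cxcr3, so that 5 receptors were called. In that fit 4105 of the 15043 genes were called, in place of 642 with all libraries. Cxcr6 had a log2 fold change of −0.34 (adjusted p = 0.0950), and passed without 1G12t replicate 2 (−0.50, adjusted p = 0.0476).

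Set against EV+IL-2, most receptors were higher in cells with either construct. In 3A10t cells 7 of 9 rose, against 10.3% of all genes higher by the rule, and in 1G12t cells 6 of 9, against 9.69%. These comparisons share the EV+IL-2 libraries with the first, so the lower values there enter all of them. In 3A10t cells Ccr6 was 3.71-fold (log2 1.85, adjusted p = 0.000398), Cxcr6 3.66-fold (1.66, 1.43e-05), Cxcr5 3.44-fold (1.29, 0.00272), Cxcr3 2.33-fold (1.13, 0.000383) and Ccr7 1.84-fold (0.88, 0.000334) the EV+IL-2 mean. Ccr8, which did not pass the test with soluble IL-2, was 1.46-fold the EV+IL-2 level in 3A10t cells (log2 0.55, SE 0.125, adjusted p = 0.0111). Cxcr4, lower in 3A10t than in EV no IL-2, was still 1.80-fold its EV+IL-2 level (log2 0.74, adjusted p = 0.0137), a call lost without EV+IL-2 replicate 2 (adjusted p = 0.0510) and in the fit of only the 6 libraries compared (adjusted p = 0.0984). Ccr2 (−0.28, adjusted p = 0.443) and Ccr4 (0.084, adjusted p = 0.720) did not pass.

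In 1G12t cells Cxcr6 was 4.76-fold (log2 2.01, adjusted p = 3.70e-06) and Cxcr4 3.69-fold (1.77, 8.26e-05) the EV+IL-2 mean. Cxcr5 (1.39), Ccr6 (1.00), Cxcr3 (0.86) and Ccr7 (0.51) rose as well, with adjusted p from 0.00179 to 0.0120. The Ccr6 call was lost without 1G12t replicate 2 (adjusted p = 0.0503) and in the fit of only the 6 libraries compared (adjusted p = 0.0607). Ccr2 and Ccr4 lay below every EV+IL-2 library in 1G12t, with log2 fold changes of −0.49 and −0.38 that did not pass (adjusted p = 0.203 and 0.103). Ccr8 had a log2 fold change of 0.29 (adjusted p = 0.138).

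Across the 12 libraries the receptors that were lower with IL-2 varied together to different degrees. Pearson's r of log2(TPM + 1) was 0.949 for Ccr6 and Ccr7, 0.894 for Cxcr3 and Cxcr6, and 0.826 for Cxcr4 and Cxcr6, but 0.400 for Ccr6 and Cxcr4. Ccr4 and Cxcr4 had an r of −0.710. The 12 points fall into 4 groups that share a pool of cells, so these values describe the group pattern and carry no p. Among 8287 genes with a mean of at least 10 TPM, the ones most like each called receptor were Ccr7, Ess2 and Cfap410 for Ccr6 (r from 0.940 to 0.949) and Acot9, Mettl18 and Serpinb6a for Ccr7 (0.964 to 0.981). For Cxcr3 they were Dusp14, Sigirr and Cd27 (0.960 to 0.974). Ly9, Il7r and Elk3 were the most like Cxcr4 (0.973), and Tpr, Scg5 and Lad1 the most like Cxcr6 (0.963 to 0.968). For Cxcr5, itself below 10 TPM, they were Armc7, Otulinl and Tgif1 (0.957 to 0.982), and for Ccr8, Gstk1, Fra10ac1 and Pard6a (0.869 to 0.944).

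The other receptors of the family were scarce. Of 11 further chemokine receptors 2 passed the filter of a mean TPM of at least 1, and neither was called with IL-2, while the 4 atypical receptors, which take up chemokines without G protein signalling, all lay below it. Of the 13 receptors below the filter, 12 had a lower mean in EV+IL-2 than in EV no IL-2 cells, the exception being Ccr10, and their median level was 0.103 TPM with IL-2, 0.343 TPM without, and 0.507 TPM in both 1G12t and 3A10t. The IL-2 libraries also had the fewest genes above 0. With no filter on low TPM, the median log2 fold change over 50219 genes was −0.10 with IL-2, against −0.014 over the 15043 genes tested. The same direction was seen for 12 of 14 ligands of the receptors and 9 of 11 other chemokines below the filter, so it was not particular to receptors. The share that was lower among all genes below the filter was not counted. The 13 receptors lay under the filter and were not fitted in the main setting, and the part of this shift in other low values was not tested.

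Of 16 ligands of the 9 receptors, 14 lay below the filter. Of the 2 tested, 1 was called lower with IL-2, against 5.13% of all genes, namely Ccl20, the ligand of CCR6. It measured 2.53, 2.11 and 5.54 TPM without and 0.715, 0.613 and 0.285 TPM with IL-2. The groups did not overlap, and it fell by 1.45 log2 units (SE 0.340, adjusted p = 0.0171). The call was lost without EV+IL-2 replicate 2 or 3 and without replicate 3 of EV no IL-2, with adjusted p from 0.0518 to 0.0709, and with a pseudocount of 5. In 1G12t and 3A10t cells Ccl20 averaged 3.71 ± 1.60 and 3.65 ± 1.33 TPM (SD, n = 3). Of 18 other chemokines 7 were tested, and 1 was called lower with IL-2, against 5.13% of all genes. That was Xcl1, a chemokine of activated lymphocytes, which fell from 1.57 ± 0.451 to 0.132 ± 0.157 TPM (adjusted p = 0.00450, limma). Both chemokines lay under 1 TPM with IL-2 and passed the filter through the other groups. Most receptors, ligands and other chemokines below the filter were lower in the IL-2 libraries too. The part of that pattern in either fall was not tested.

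The machinery that carries and ends the receptor signal was measured with lists drawn up from general knowledge. Of 19 genes of the Gi pathway and its effectors, 1 rose and 0 fell with IL-2, against 8.17% and 5.13% of all genes, and the median log2 fold change was −0.072. The gene that rose was Pik3cg, the G protein-activated PI3 kinase, at 4.77 ± 0.840 TPM without and 8.52 ± 1.17 TPM with IL-2 (log2 0.73, adjusted p = 0.00376). In 3A10t against 1G12t cells 2 of the 19 fell, against 2.96% of all genes, namely Dock2 and Prex1, both activators of Rac in migrating lymphocytes. Dock2 measured 139, 109 and 107 TPM in 3A10t and 163, 196 and 219 TPM in 1G12t (log2 −0.70, adjusted p = 0.0391), and Prex1 fell by 0.67 (adjusted p = 0.0450). The Dock2 call held only in 8 of 21 alternatives and was lost without any 1 of 10 libraries, all but EV no IL-2 replicate 1 and 3A10t replicate 1. The Prex1 call held in 6 of 21 and was lost without any library other than 3A10t replicate 1.

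Of 12 tested genes that end the signal, 4 fell with IL-2 and 1 rose, against 5.13% and 8.17% of all genes, with a median log2 fold change of −0.18. Rgs16 and Rgs2, which speed the shut-off of G proteins, fell the most. Rgs16 measured 21.1, 16.0 and 16.7 TPM without and 3.81, 3.49 and 3.09 TPM with IL-2, and fell by 2.08 log2 units (adjusted p = 8.96e-05). Rgs2 measured 63.9, 55.0 and 57.2 TPM without and 18.0, 17.8 and 18.2 TPM with IL-2, and fell by 1.65 (adjusted p = 0.000504). Both groups of libraries were far apart in either gene. The other 2 that fell were Grk5, a receptor kinase, and Rgs10, by 0.68 and 0.63. Grk5 averaged 0.993 TPM with IL-2, under the 1 TPM of the filter, and passed it through the other groups. The part of the pattern at low values in its fall was not tested. The Grk5 call (adjusted p = 0.0453) held in 9 of 20 alternatives, and was lost with the replicate block (adjusted p = 0.0633) and without any 1 of 7 libraries, the 6 compared and 1G12t replicate 2. In 3A10t against EV no IL-2 cells none of the 12 was called, against 2.05% of all genes. Rgs16 (18.5 ± 5.22 TPM) and Rgs2 (63.0 ± 3.88 TPM) had log2 fold changes of 0.012 and 0.10 there.

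Of 11 tested other trafficking receptors 4 fell with IL-2 and 0 rose, with a median log2 fold change of −0.29, against 5.13% and 8.17% of all genes by the rule. S1pr1, through which T cells leave lymph nodes, measured 844, 889 and 857 TPM without and 607, 607 and 546 TPM with IL-2 (log2 −0.56, adjusted p = 0.0143), and did not overlap. The S1pr1 call was lost without EV+IL-2 replicate 3 and without either replicate 2 or replicate 3 of EV no IL-2 (adjusted p from 0.0504 to 0.0599). Ptger2, a receptor for prostaglandin E2, and S1pr4 fell by 0.64 and 0.26, and the call of Ptger2 was lost without EV no IL-2 replicate 3 (adjusted p = 0.0545). The S1pr4 call (adjusted p = 0.0451) held in 8 of 21 alternatives, and was lost with the replicate block (adjusted p = 0.0632) and without any 1 of 9 libraries, all but 1G12t replicate 3 and 3A10t replicates 1 and 2. None of the 11 was called in 3A10t or 1G12t against EV no IL-2 cells, where 2.05% and 0.0199% of all genes were.

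Of 16 tested transcription factors known to control such receptors, 3 fell and 1 rose with IL-2, against 5.13% and 8.17% of all genes, with a median log2 fold change of −0.11. Tcf7, a factor of naive and memory T cells, fell from 186 ± 31.2 to 47.7 ± 11.5 TPM (SD, n = 3; adjusted p = 0.000220), and lay at 107, 63.3 and 101 TPM in 3A10t, where it fell by 1.05 log2 units against EV no IL-2 (adjusted p = 0.0438). Bcl6, the factor of follicular T cells, measured 5.81, 5.80 and 4.94 TPM in EV cells without IL-2, only 1.66, 1.64 and 1.75 TPM in those with it, and 3.34, 2.85 and 3.17 TPM in 3A10t. The 3 groups did not overlap, and Bcl6 fell by 1.28 with IL-2 (adjusted p = 0.000111) and by 0.66 in 3A10t (adjusted p = 0.0394). With IL-2 it lay near the floor of the filter, and the part of the pattern at low values in that fall was not tested. Bcl6 was also lower in 3A10t than in 1G12t, by 0.81 (adjusted p = 0.0213). The calls against EV no IL-2 were marginal, as with Cxcr4. That of Tcf7 held in 6 of 21 alternatives and was lost without any library other than 3A10t replicate 1, and that of Bcl6 held in 7 of 20 and was lost without any 1 of 9 libraries, all but 1G12t replicates 2 and 3 and 3A10t replicate 1. In the direct comparison of the constructs, Bcl6 was not called without 1G12t replicate 1 or 2 or 3A10t replicate 2 or 3, nor in the fit of only the 6 libraries compared (adjusted p = 0.281). Against EV+IL-2, 3A10t cells had a log2 fold change of 0.90 for Tcf7 (adjusted p = 0.0167), lost without EV+IL-2 replicate 2 or 3A10t replicate 3 and in the fit of those 6 libraries, and of 0.62 for Bcl6 (adjusted p = 0.00862), called in 20 of 20 alternatives. The factor that rose with IL-2 was Batf, by 0.70. Of the 8 Treg markers, Il2ra and Tnfrsf18 rose with IL-2, by 0.76 and 0.66, and none fell.

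**Figure D4:**
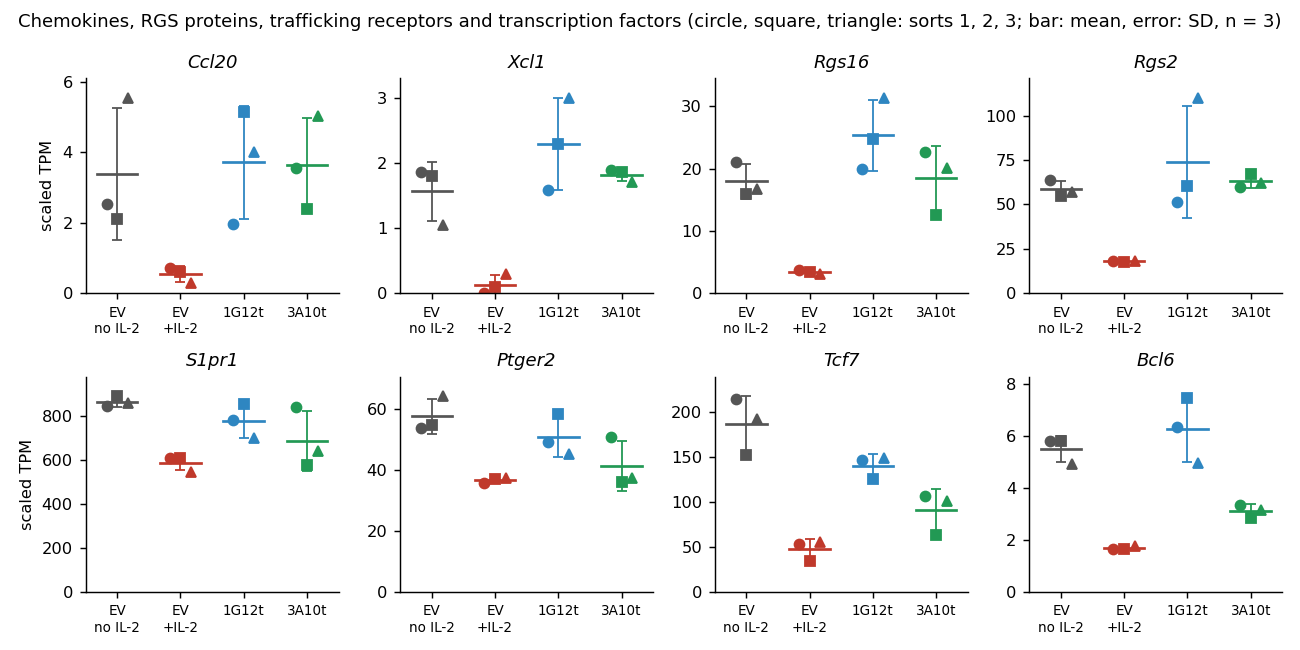
Scaled TPM (linear axis from 0) of 2 chemokines, 2 RGS genes, 2 other trafficking receptors and 2 transcription factors in the 12 libraries, with circle, square and triangle for sorts 1, 2 and 3, a bar for the mean and an error bar for the SD (n = 3). All 8 genes are lower in EV+IL-2 than in EV no IL-2, and Bcl6 in 3A10t lies between 2.85 and 3.34 TPM, apart from both. Ccl20 and Xcl1 lie under 1 TPM in EV+IL-2 and passed the filter through the other groups.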

How the data were processed

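Bulk RNA-seq of 12 libraries, 3 per group, was analysed, with groups and replicates taken from the sample labels. The deposited values are TPM, 1 column per library for 55228 symbols. To make them, the authors trimmed reads with Cutadapt 1.18, aligned them to mm10 (GRCm38) with STAR 2.5.3 and estimated expression with RSEM 1.3.0, per the submitters' processing notes. Counts tested by the authors with DESeq2 1.26 were not used here, and read depth is unknown. The kit makes full-length cDNA from poly(A) RNA without marking strand, so antisense reads could not be told apart.

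TPM were divided by median-of-ratios factors (0.854 to 1.09), and the test was run on 15043 genes whose mean reached 1 TPM, with limma 3.58.1 (R 4.3.3) on log2(scaled TPM + 1) with a trended eBayes fit, 1 mean per group, all 12 libraries and no replicate block. P-values were adjusted by Benjamini-Hochberg over all genes for each of 6 comparisons, and an adjusted p under 0.05 was called. Fold changes are on that scale and understate changes of low genes. The code was tested on simulated data. Shared 50-base windows came from GENCODE M21 transcripts and promoters from RefSeq on GRCm38.p6. Figures used Python 3.11.15 and matplotlib 3.10.9.

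The receptors and gene lists were chosen with earlier results of these data known. All 9 receptors are named, from each other list up to 4 called genes with the largest change with IL-2 or between the constructs, and for each called receptor the 3 genes of highest r. Foxp3, Cd79b and Cst3 were named as markers after their values were seen. Some genes of these lists are counted but not reported by name here.

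The labels give the pairing, since libraries with the same number share a sort. Deviations from group means correlated over the 18 same-number pairs with a mean r of 0.041 (−0.105 to 0.155, 3 pairs over 0.1) and over the 36 others with −0.0205. Alternatives were other pseudocounts, filters and scalings, the block, an untrended fit, only the 6 libraries compared, and each library left out.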

Additional observations from a re-analysis of the deposited data

How the results depend on the processing

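Each receptor result was recomputed under 21 alternatives (20 for Cxcr5, which a mean TPM of at least 5 leaves out), and so, by a choice made after seeing the data, were the called genes of the other lists named in the text (20 for Ccl20, Xcl1, Grk5 and Bcl6). With the replicate block every receptor call stayed as it was, with 6 receptors called in EV+IL-2 and 1 in 3A10t against EV no IL-2, while Grk5 and S1pr4 were lost. The 6 calls with soluble IL-2 also held under all others. The number of receptors called in 3A10t against EV no IL-2 went from 1 to 0 with no filter on low TPM and with only the 6 libraries compared, and ranged from 0 to 2 when a library was left out, while the number of all genes called went from 25 to 3469. In 3A10t against 1G12t it went from 1 to 0 under the same 2 settings, to 2 when the filter was raised to 5 TPM (Ccr6 added) or TPM as deposited (Cxcr6 added), and ranged from 0 to 5 without a library, while all genes called went from 39 to 4105. With only the 6 libraries compared the number of all genes called in these comparisons was 4 and 13 in place of 308 and 642. In 1G12t against EV+IL-2, Ccr8 was added with TPM as deposited (log2 0.39) and quantile normalization (0.40).

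TPM as deposited shifted the median of all genes by −0.18 in 3A10t against 1G12t and by 0.11 in 1G12t against EV+IL-2. They turned the sign of Cxcr3 (−0.022) and Cxcr6 (−0.12), and of Rgs16 (−0.13) and Rgs2 (−0.046), in 3A10t and Ccr2 (0.0088) in 1G12t against EV no IL-2, and of Ccr4 (−0.00071) in 3A10t against EV+IL-2. Quantile normalization turned Cxcr5 (0.0043) in 3A10t against 1G12t. None of these was called, and the cause was not tested. Leaving out libraries also turned uncalled signs. In 3A10t against EV no IL-2 the ranges were −0.0037 to 0.31 for Ccr2, −0.035 to 0.26 for Cxcr3, −0.018 to 0.064 for Cxcr6 and −0.15 to 0.25 for Rgs16. In 1G12t against EV no IL-2 they were −0.21 to 0.27 for Ccr2, −0.46 to 0.038 for Ccr6 and −0.28 to 0.090 for Cxcr5. Ccr8 ranged from −0.17 to 0.017 in EV+IL-2 against EV no IL-2 and Ccr4 from −0.040 to 0.20 in 3A10t against EV+IL-2. In 3A10t against 1G12t, Ccr2 ranged from −0.095 to 0.36 and Cxcr5 from −0.33 to 0.038. Without read depth, differences among the receptors below 1 TPM could not be judged.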
